A study of Mus musculus with 5 samples.

Results

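The collagen genes are the 40 rows of the single-cell expression table whose symbol is Col, a number, a and a number, out of 16498 genes in all. They were chosen by name alone, and no measured value entered the choice. The cells came from the atherosclerotic aortic arch of mice on the Apoe-/- strain that had eaten normal chow for 28 weeks, and live cells without DAPI stain were sorted and pooled (n = 6 by the series' design, which does not say whether this is per library or per group). By the labels, 2 libraries came from Oasl1+/+Apoe-/- mice (below, Apoe-/-) and 3 from Oasl1-/-Apoe-/- mice, so both groups lack Apoe and differ in Oasl1, an interferon-induced gene. The Oasl1 line carries a germline deletion of the promoter and exon 2, so every cell type of the animal carries it. Age and sex are not given in the labels.

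Collagens are triple helices of 3 chains that build the solid part of the extracellular matrix. Fibrillar collagens such as types I, III and V give the artery wall its tensile strength, type IV forms the sheet of the basement membrane under endothelium and around each smooth muscle cell, and type II is the fibril of cartilage. In atherosclerosis, smooth muscle cells that lose contractile proteins and take up a matrix-making state are a known source of the fibrous cap, and some plaque cells express cartilage genes. Some chains of 1 trimer are encoded by neighbouring genes, while others, such as those of type I, are encoded on different chromosomes. The type IV genes lie in pairs that are transcribed away from each other.

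The stretches of 300 bases around the start of 6 of the genes are printed here because the pairs Col4a5 with Col4a6 and Col4a1 with Col4a2 lie head to head, and because Col1a2 and Col3a1 encode chains of the most abundant fibrils in these cells. Each runs from 250 bases before to 50 bases from the RefSeq start on build GRCm38.p6, 5′ to 3′ on the strand of the gene. They are Col4a5 (chrX:141475169-141475468, plus strand), Col4a6 (chrX:141474027-141474326, minus strand), Col4a1 (chr8:11312777-11313076, minus strand), Col4a2 (chr8:11312555-11312854, plus strand), Col1a2 (chr6:4505368-4505667, plus strand) and Col3a1 (chr1:45311288-45311587, plus strand). Capitals mark 3 short motifs on either strand. The first has the letters CCAAT, which read ATTGG on the other strand. The second is the GC box GGGCGG, which reads CCGCCC on the other strand. The third is the box TATAAA, which reads TTTATA on the other strand.
Col4a5: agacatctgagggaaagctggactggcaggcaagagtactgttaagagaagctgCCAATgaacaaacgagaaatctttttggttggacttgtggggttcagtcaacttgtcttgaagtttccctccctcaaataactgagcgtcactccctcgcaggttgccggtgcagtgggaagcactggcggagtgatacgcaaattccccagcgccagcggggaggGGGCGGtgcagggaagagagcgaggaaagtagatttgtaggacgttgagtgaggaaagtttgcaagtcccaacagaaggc
Col4a6: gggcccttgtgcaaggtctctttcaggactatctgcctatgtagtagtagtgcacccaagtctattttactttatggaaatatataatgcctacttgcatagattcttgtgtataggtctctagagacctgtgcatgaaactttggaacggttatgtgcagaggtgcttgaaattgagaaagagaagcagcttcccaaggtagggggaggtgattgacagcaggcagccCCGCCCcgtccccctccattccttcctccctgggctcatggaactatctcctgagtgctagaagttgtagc
Col4a1: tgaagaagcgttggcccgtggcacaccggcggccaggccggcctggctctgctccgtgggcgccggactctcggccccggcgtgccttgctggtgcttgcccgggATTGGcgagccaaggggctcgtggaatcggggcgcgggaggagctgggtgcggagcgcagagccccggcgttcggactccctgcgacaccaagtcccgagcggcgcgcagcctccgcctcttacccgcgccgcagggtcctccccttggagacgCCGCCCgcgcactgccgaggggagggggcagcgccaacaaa
Col4a2: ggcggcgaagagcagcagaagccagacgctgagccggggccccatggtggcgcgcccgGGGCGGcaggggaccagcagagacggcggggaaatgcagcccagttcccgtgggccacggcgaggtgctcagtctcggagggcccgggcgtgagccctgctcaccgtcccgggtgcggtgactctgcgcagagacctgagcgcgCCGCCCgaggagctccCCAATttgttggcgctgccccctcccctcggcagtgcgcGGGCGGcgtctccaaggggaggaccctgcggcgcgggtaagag
Col1a2: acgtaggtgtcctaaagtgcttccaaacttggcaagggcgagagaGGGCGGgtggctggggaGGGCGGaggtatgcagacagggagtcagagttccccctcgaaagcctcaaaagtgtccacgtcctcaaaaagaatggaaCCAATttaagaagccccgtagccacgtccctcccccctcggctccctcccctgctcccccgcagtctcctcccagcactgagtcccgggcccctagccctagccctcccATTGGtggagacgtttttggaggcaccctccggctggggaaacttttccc
Col3a1: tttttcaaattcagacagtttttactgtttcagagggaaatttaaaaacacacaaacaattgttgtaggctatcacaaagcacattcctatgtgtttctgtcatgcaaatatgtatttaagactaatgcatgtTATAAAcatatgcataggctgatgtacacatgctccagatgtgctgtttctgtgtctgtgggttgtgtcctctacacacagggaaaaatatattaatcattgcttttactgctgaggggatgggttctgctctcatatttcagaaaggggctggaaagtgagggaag
The windows of Col4a1 and Col4a2 shared the bases from 11312777 to 11312854, read on opposite strands. In GENCODE release M21, which uses the same build, the starts of these genes lay 21 bases apart, those of Col4a3 and Col4a4 72 bases apart on chromosome 1, and those of Col4a5 and Col4a6 1309 bases apart on chromosome X. Col3a1 and Col5a2 were also neighbours, with 24614 bases between their ends on chromosome 1. Of the 40 symbols, 32 had a RefSeq window, and these had 35 windows in all. GGGCGG on either strand stood in 22 of the 35 (62.9%), against 35.7% of 32851 mouse promoter windows of the same length. CCAAT stood in 11 (31.4%, against 37.4%) and TATAAA in 4 (11.4%, against 13.6%). A match describes the letters of the window and is not a measured site.

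Droplet 3′ sequencing counts 1 tag per molecule as a unique molecular identifier (UMI), so a count does not grow with gene length, although capture can differ between genes. Levels below are UMIs per 10000 UMIs of a cell (CP10K), averaged over the cells of a library. The libraries held 3212 to 4338 cells and 16959976 to 19813039 UMIs, and 165 barcodes occurred in more than 1 library. The UMIs of Oasl1 itself numbered 27 and 16 in Apoe-/- libraries, against 299, 257 and 315 in those labelled Oasl1-/-Apoe-/-. This is opposite to what a loss of the transcript would give. A 3′ tag lies outside the deleted part, but the promoter is deleted too, so the conflict between counts and labels was not resolved. The leukocyte shares given below go the way of the labels, as the paper reports more leukocytes by flow cytometry in Oasl1-/-Apoe-/- aortas. The libraries of the second group are therefore called the libraries labelled Oasl1-/-Apoe-/-. Values are given in the order Apoe-/- replicates 1 and 2, then labelled replicates 1, 2 and 3. Nothing says that libraries of a group came from separate mice, so p-values do not measure the spread between mice. They rest on the spread between these libraries, and limma draws that of each gene towards genes of like level. An SE can therefore be smaller than the spread of the gene itself would give. With 2 libraries against 3, an exact permutation test cannot reach 0.05, and calls come from limma across all genes at an adjusted p under 0.05.

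Cells were classed by how many markers of a type they held, with no collagen among the markers. Smooth muscle cells needed 7 of 9 (9690 cells), modulated cells 4 of 7 (465), cartilage-like cells 4 of 11 (144), fibroblasts 4 of 10 (253), endothelial cells (ECs) 4 of 12 (1390) and leukocytes 3 of 9 (4636). Myh11, Cnn1 and Acta2 were among the leading genes of the first class, Timp1, Lum and Vcam1 of the modulated class, Chad, Ibsp and Acan of the cartilage-like class, Clec3b, Pi16 and Dpt of the fibroblasts, and Pecam1, Cldn5 and Vwf of the ECs. All of these but Vcam1 were markers used to class the cells, so their lead follows from that choice. Leading genes outside the markers included Rgs5 and Itga8 in smooth muscle cells and Vcam1 and Crabp2 in modulated cells. Others were Chil1 and Scrg1 in cartilage-like cells, Cygb and Gpx3 in fibroblasts, and Gkn3 and Mmrn2 in ECs. In these names, modulated means cells rich in Lum, Spp1 and Fn1. Their summed smooth muscle markers were 33.6 CP10K, against 639 in smooth muscle cells, and they held a median of 3 of 10 fibroblast markers. Whether they arose from smooth muscle cells was not tested. A further 709 cells held both smooth muscle markers and at least 4 modulated or fibroblast markers and were kept apart. The share of cells exactly at the cut was 1.67% for smooth muscle, 5.32% for ECs, 9.09% for fibroblasts, 19.8% for modulated and 34.0% for cartilage-like cells, so the last classes are ranges more than types. Smooth muscle cells made up 64.2 and 65.8% of the Apoe-/- libraries and 42.8 to 42.9% of the labelled libraries. Modulated cells made up 1.23 and 1.18% against 3.41 to 4.0%, and leukocytes 17.3 and 15.9% against 32.4 to 33.8%.

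The collagen repertoire separated the classes. Summed over the 40 genes, the collagen level was lowest in leukocytes, at 0.708 and 0.614 CP10K in the Apoe-/- libraries and 1.12, 1.61 and 0.991 in the labelled ones. Leukocytes should make little collagen, and the part of free RNA or of mixed cells in this level was not tested. They held 5.26% of Col14a1 UMIs and 0.298% of Col18a1 UMIs. ECs stood at 10.0 and 9.84 against 11.8, 15.7 and 14.4 CP10K. Smooth muscle cells stood at 42.2 and 43.3 against 42.8, 43.1 and 43.5, and fibroblasts at 68.5 and 75.3 against 91.8, 93.6 and 80.6. Modulated cells reached 89.9 and 128 against 181, 171 and 190, and cartilage-like cells 215 and 219 against 453, 551 and 457. The summed level overlapped between the groups in smooth muscle cells, and was higher in each labelled library than in both Apoe-/- libraries in the other 5 classes, leukocytes included. No test was made of these sums.

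**Figure D1:**
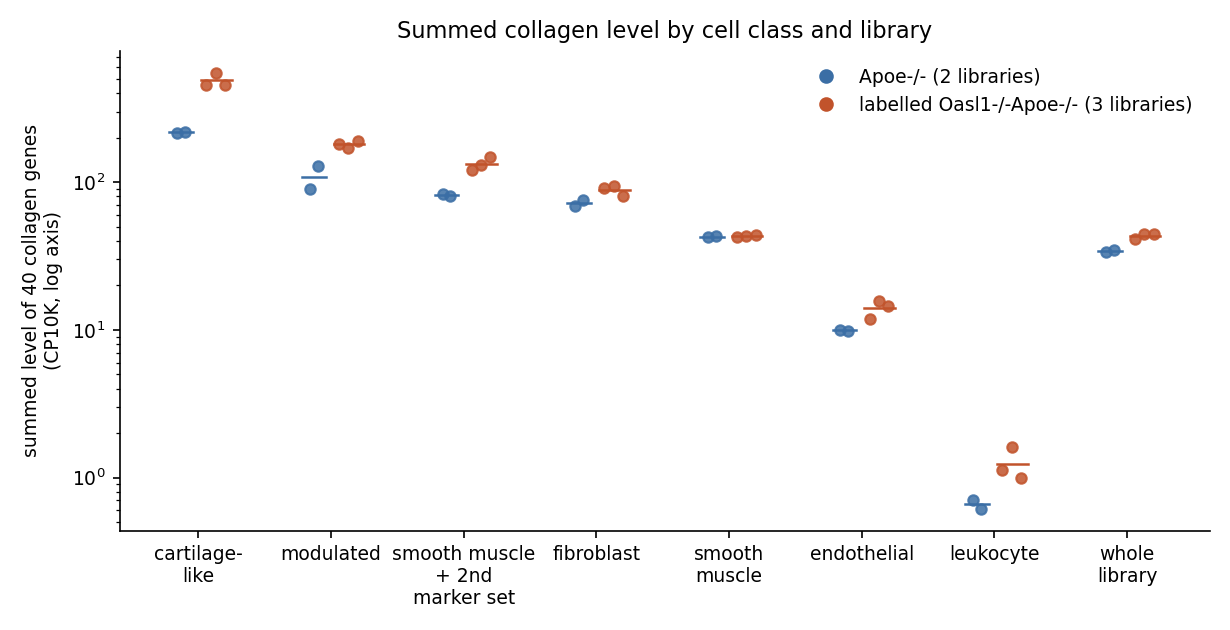
Summed level of the 40 collagen genes (CP10K, log axis) in each cell class, in smooth muscle cells that also held modulated or fibroblast markers, and in the whole library. Each point is 1 library, blue for the 2 Apoe-/- and orange for the 3 labelled Oasl1-/-Apoe-/- libraries, with a bar at the mean of each group. Smooth muscle cells lie at 42.2 to 43.5 in all 5, while modulated cells run from 89.9 to 190 and leukocytes from 0.614 to 1.61.

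Fibrillar collagens, a family of 11 genes here, made up 52.4% of the summed level in smooth muscle cells, 78.2% in fibroblasts, 81.6% in modulated cells, 86.1% in cartilage-like cells and 34.3% in ECs. Smooth muscle cells and ECs had the larger shares of basement membrane type IV chains (16.6% and 31.8%, against 0.874 to 4.59% in the other 3 classes) and of the multiplexins Col15a1 and Col18a1, basement membrane collagens that carry sugar chains (18.8% and 11.4%, against 0.736 to 2.55%). The short-chain network collagens, led by Col8a1, made up 14.9% in ECs. The fibril-associated collagens, which decorate fibrils, made up 6.8% in fibroblasts, where Col14a1 led them. These shares describe means over the 5 libraries and were not tested.

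The 5 highest collagens of smooth muscle cells were Col3a1 (9.14 CP10K over 5 libraries), Col18a1 (6.9), Col1a2 (6.66), Col1a1 (4.61) and Col4a1 (3.25). Those of modulated cells were Col1a1 (41.9), Col3a1 (40.3), Col1a2 (30.9), Col5a2 (6.27) and Col6a3 (5.29). Fibroblasts were led by Col3a1 (26.6), Col1a2 (19.2), Col1a1 (15.5), Col14a1 (4.65) and Col6a1 (2.86). Chains of types I and III took the first 3 places in modulated cells and fibroblasts. In smooth muscle cells, Col18a1 stood above Col1a2 in both Apoe-/- libraries (7.25 and 7.18 against 5.96 and 6.28) but was level with it or below it in the labelled libraries (6.71, 6.71 and 6.67 against 6.71, 7.27 and 7.07). In modulated cells, the Apoe-/- mean of Col3a1 (29.6) was above that of Col1a1 (26.0), so these orders over all 5 libraries are not those of each group. Cartilage-like cells were led by Col2a1 (128), followed by Col1a1 (75.4), Col1a2 (70.6), Col3a1 (28.4) and Col6a1 (13.5). ECs were led by chains of the basement membrane and of the subendothelial matrix, Col4a1 (2.09), Col5a2 (1.91), Col8a1 (1.84), Col18a1 (1.3) and Col4a2 (1.1).

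Several low collagens had most of their UMIs in 1 class. Cartilage-like cells held 93.8% of 417 Col9a1 UMIs, 97.3% of 185 Col9a2 UMIs and 90.9% of 429 Col9a3 UMIs, the chains of type IX that coat type II fibrils. Smooth muscle cells held 93.0% of 402 Col19a1 UMIs. ECs held 64.7% of 417 UMIs of Col23a1, a transmembrane collagen, and were 6.47 to 8.58% of the cells of a library. All 9 Col6a5 UMIs came from fibroblasts, from 3 cells of labelled replicate 2. Col13a1 was listed at 0 in every class, and no limit is given for such zeros. Genes with UMIs in exactly 2 cells of a library numbered 107 to 126, against 409 to 486 with UMIs in exactly 3, so many of the rarest genes may have been taken to 0 before deposit. In all 5 libraries at once, 29 of the 40 genes were seen in smooth muscle cells, 21 in modulated cells, 21 in cartilage-like cells, 20 in fibroblasts and 21 in ECs. A further 6, 13, 12, 7 and 8 were listed at 0 in some libraries and not in others.

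**Figure D2:**
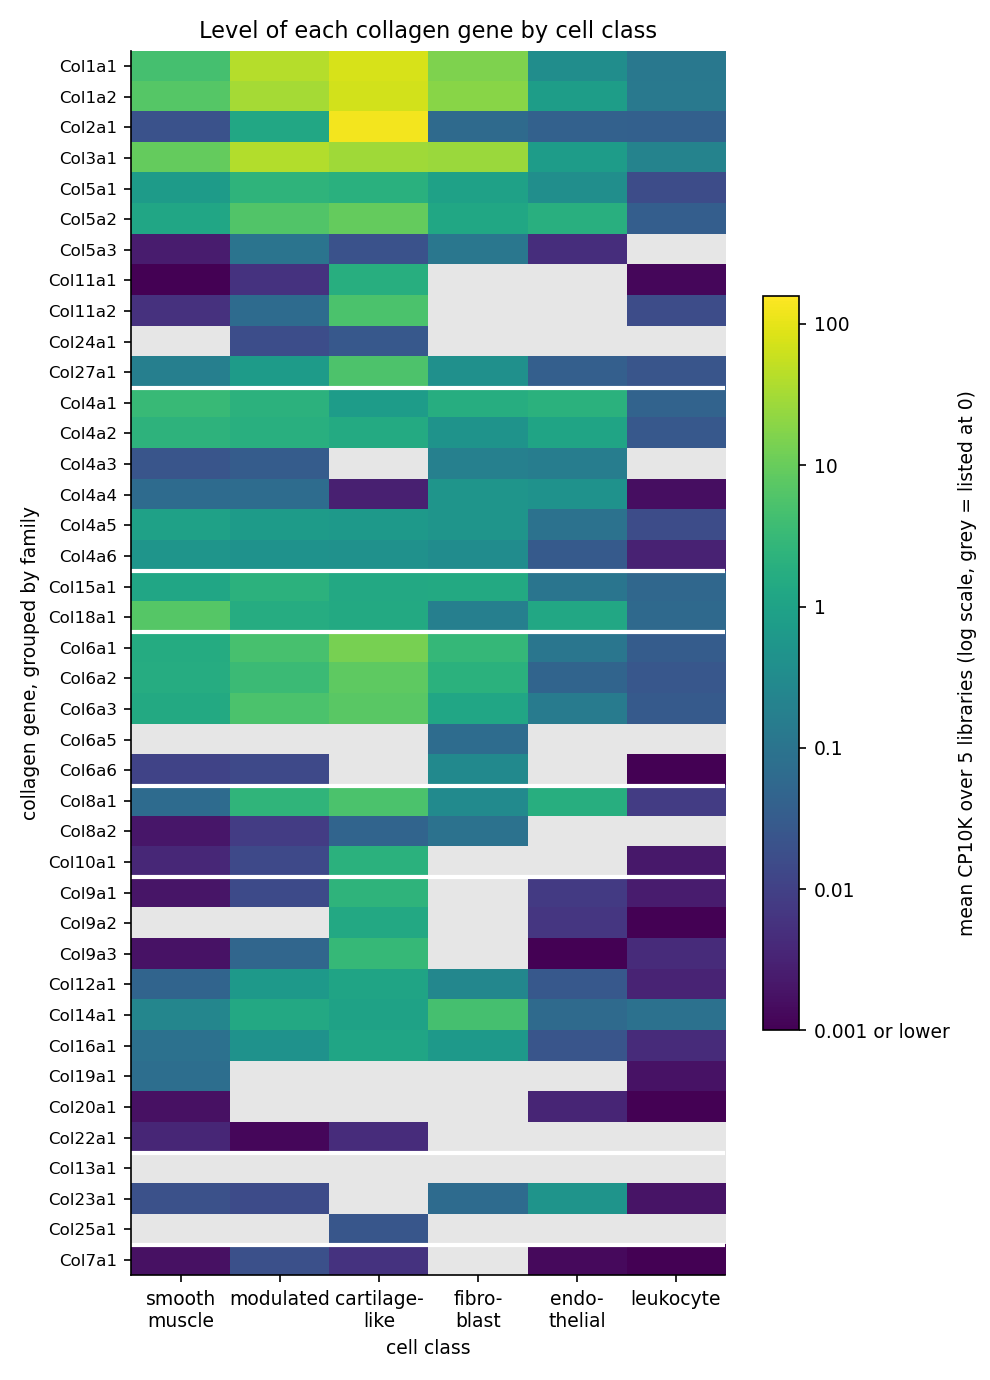
Mean level of each collagen gene (rows, grouped by family with white lines between families) in 6 cell classes (columns), as mean CP10K over 5 libraries on a log colour scale, grey where listed at 0. Col2a1, Col9a1 to Col9a3 and Col11a2 are brightest in cartilage-like cells, and Col23a1 in ECs.

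The ratios of partner chains of 1 trimer were compared over the libraries. In smooth muscle cells, Col1a1 to Col1a2, which combine in a trimer with 2 chains of the former and 1 of the latter, had ratios of CP10K from 0.618 to 0.771 over the libraries. Col4a1 to Col4a2, which share their trimer in the same proportion, ran from 1.32 to 1.47, Col4a5 to Col4a6 from 1.74 to 1.96, Col5a2 to Col5a1 from 1.64 to 1.88, Col6a1 to Col6a2 from 0.92 to 1.01 and Col6a3 to Col6a2 from 0.764 to 0.888. Col4a4 to Col4a3 was less steady, from 1.9 to 3.94, on 319 and 117 UMIs. The proportions of type I transcripts differed by class. Col1a1 stood above Col1a2 in every library in modulated cells, with ratios from 1.02 to 1.43, and below it in every library in smooth muscle cells and in fibroblasts (0.676 to 0.958). These ratios are of transcripts caught at their 3′ ends, not of protein chains.

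Over whole libraries, collagen transcripts took a larger share in the labelled libraries. They made up 0.367 and 0.382% of UMIs in Apoe-/- and 0.511, 0.557 and 0.584% in labelled libraries, and the groups did not overlap. Whole-library levels mix cell numbers with RNA per cell, and fewer cells of a type cannot be told apart there from less RNA in each. Of 23 collagens past the filter on low levels (a mean of at least 0.05 CP10K), 14 rose and 5 fell, beside 41.1% of all 9836 genes tested that were called in either direction (4045). The median log2 difference, labelled minus Apoe-/-, was 0.21 over the collagens and -0.029 over all genes. The other 17 collagens were below the filter and were not tested.

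Col2a1, the chain of the cartilage fibril, rose the most. Its level was 0.233 and 0.156 CP10K in Apoe-/- and 1.39, 2.76 and 2.48 in labelled libraries, a log2 difference of 3.17 (SE 0.234, limma adjusted p = 2.81e-06). Next came Col11a2, a minor chain of cartilage fibrils, with 0.0185 and 0.0109 against 0.0693, 0.11 and 0.125 CP10K. Its log2 difference was 1.21 (SE 0.142, adjusted p = 7.51e-05), and it passed the filter only through the labelled libraries. Both genes thus had no overlap between the groups.

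Col1a1 rose from 3.78 and 4.26 to 7.29, 7.65 and 7.99 CP10K (log2 difference 0.92, SE 0.0586, adjusted p = 1.01e-06). Col8a1, a short-chain collagen of the vessel wall and of Descemet's membrane, rose from 0.253 and 0.269 to 0.454, 0.555 and 0.581 (0.89, SE 0.0905, adjusted p = 2.79e-05). Col12a1, which binds type I fibrils, rose from 0.0389 and 0.0509 to 0.0993, 0.109 and 0.097 (0.68, SE 0.0835, adjusted p = 0.000106), and it too passed the filter only through the labelled libraries. The 5 that fell were basement membrane or transmembrane collagens. Col18a1, the source of endostatin, fell from 5.04 and 5.09 to 3.51, 3.54 and 3.43 CP10K (log2 difference -0.53, SE 0.0418, adjusted p = 4.55e-06). The head-to-head pair fell together, Col4a1 with a log2 difference of -0.43 (SE 0.0457, adjusted p = 3.86e-05) and Col4a2 with -0.33 (SE 0.0464, adjusted p = 0.000293). Col4a4 (-0.41) and Col23a1 (-0.28) were the others.

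Where the collagen UMIs came from differed between the groups. Smooth muscle cells held 77.6 and 78.0% of a library's collagen UMIs in Apoe-/- and 34.9, 33.1 and 30.7% in labelled libraries. Modulated cells held 4.27 and 7.09% against 22.6, 16.0 and 18.9%, and cartilage-like cells 2.46 and 1.65% against 15.3, 18.7 and 17.9%. Cells with both marker sets held 8.64 and 6.33% against 17.6, 21.6 and 23.6%. No share of these 4 overlapped between the groups, and ECs held 1.84 to 2.26% in every library. By gene, 91.5% of Col18a1 UMIs in Apoe-/- and 77.1% in labelled libraries lay in smooth muscle cells, while 94.9% and 94.3% of Col2a1 UMIs lay in cartilage-like cells. For Col1a1, the share in smooth muscle cells was 69.1% against 18.4%.

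**Figure D3:**
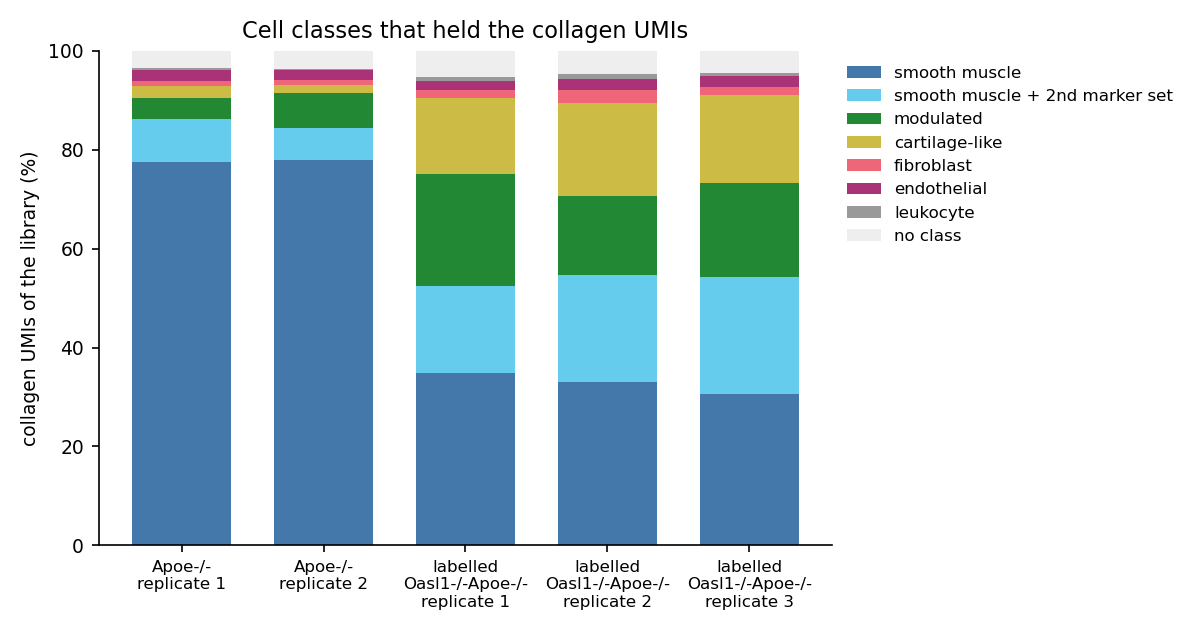
Share of the collagen UMIs of each library (percent, stacked to the whole) that lay in each cell class, with 1 bar per library. Smooth muscle cells hold 77.6 and 78.0% in the Apoe-/- bars and 30.7 to 34.9% in the labelled ones.

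When cells were reweighted so that each class had the same share in every library, 15 of 23 collagens rose and 1 fell, beside 10.9% of all 9821 genes called (724 higher and 346 lower). The log2 difference of Col2a1 became 1.12 (adjusted p = 0.00118) and that of Col1a1 0.62 (adjusted p = 0.000141). That of Col18a1 became -0.082 (adjusted p = 0.243), Col4a1 -0.078 (adjusted p = 0.325) and Col4a2 0.0028 (adjusted p = 0.981), so these 3 calls did not pass. Col4a4 still fell (-0.32, adjusted p = 0.0486), and Col4a5 (0.25) and Col4a6 (0.26) rose. The reweighted Col2a1 value rests mainly on cartilage-like cells, which held 94.9% of its UMIs in Apoe-/- and 94.3% in labelled libraries. These cells numbered only 13 and 8 in the Apoe-/- libraries, where 5 cells held 99.0 and 100% of the Col2a1 UMIs of the class. The class was too small for a test of its own, so the reweighted Col2a1 call cannot show a difference per cell. The same limit holds for the reweighted rise of Col11a2 (0.49, limma adjusted p = 0.00824), which had 87.2% of its UMIs in these cells.

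Within smooth muscle cells, 3 of 20 collagens tested rose and none fell (8 at an unadjusted p under 0.05), beside 6.99% of all 9001 genes called. The median log2 difference was 0.038 over the collagens and 0.0085 over all genes. The X-linked head-to-head pair of type IV chains, which form the basement membrane network around smooth muscle, rose together. Col4a6 stood at 0.447 and 0.441 CP10K in Apoe-/- and at 0.573, 0.559 and 0.548 in labelled libraries, with a log2 difference of 0.30 (SE 0.0688, limma adjusted p = 0.00818). Col4a5 stood at 0.855 and 0.863 against 1.03, 0.971 and 1.07 (0.24, SE 0.0629, adjusted p = 0.0224). For both genes each labelled library was above both Apoe-/- libraries. The other type IV pair showed no such rise, with Col4a1 at 3.41 and 3.53 against 3.12, 2.98 and 3.22 CP10K (-0.16, SE 0.0516, adjusted p = 0.0684, and 0.0405 with voom) and Col4a2 at 2.38 and 2.4 against 2.27, 2.26 and 2.3 (-0.067, SE 0.051, adjusted p = 0.503).

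Col1a2 rose from 5.96 and 6.28 to 6.71, 7.27 and 7.07 CP10K (log2 difference 0.19, SE 0.049, adjusted p = 0.0167). Its partner Col1a1 stood at 4.46 and 4.85 against 4.64, 4.49 and 4.62, which overlap (-0.02, SE 0.05, adjusted p = 0.867). Col3a1 stood at 9.19 and 9.42 against 8.92, 9.02 and 9.14 (-0.043, SE 0.0439, adjusted p = 0.635). Col18a1, of which this class held most UMIs, stood at 7.25 and 7.18 against 6.71, 6.71 and 6.67 (-0.11, SE 0.0445, adjusted p = 0.174). These values rest on 1374 to 2856 cells per library. Without labelled replicate 3, only Col4a6 of the 3 stayed past the threshold, with adjusted p of 0.109 for Col1a2 and 0.147 for Col4a5, and without Apoe-/- replicate 2 there were 5 calls. With no filter on low levels, the adjusted p was 0.101 for Col1a2 and 0.0786 for Col4a5.

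The count turned on where the smooth muscle class ends. With the 709 cells that also held modulated or fibroblast markers included, a check added after the data were seen, 13 of 21 collagens rose, beside 10.1% of all 9056 genes called (629 higher and 286 lower). Col8a1 then had a log2 difference of 1.23 (adjusted p = 6.31e-06), Col14a1 0.61 (adjusted p = 0.000134), Col1a1 0.60 (adjusted p = 5.72e-07), Col1a2 0.53 (adjusted p = 1.05e-06), Col5a2 0.48 (adjusted p = 2.69e-05) and Col3a1 0.28 (adjusted p = 0.000651). These cells numbered 101 and 89 against 170, 172 and 177, and their summed collagen level was 83.0 and 79.9 against 121, 130 and 147 CP10K. Col4a5 (0.23) and Col4a6 (0.30) kept their size.

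Modulated cells had the most fibrillar collagens that rose among the 4 classes tested. Of 24 collagens tested, 5 rose and none fell (12 at an unadjusted p under 0.05), beside 1.21% of all 9253 genes called. All 5 were fibrillar chains, and the median log2 difference was 0.45 over the collagens and 0.054 over all genes. These values rest on 50 and 51 cells against 136, 118 and 110, with a median of 5737 and 6110 UMIs per cell against 8108.5, 7113 and 8105. The part of depth in the result was not tested.

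Col3a1 rose from 28.8 and 30.4 to 44.8, 47.9 and 49.3 CP10K, a log2 difference of 0.67 (SE 0.0913, limma adjusted p = 0.00215). Col5a2, whose product sets the thickness of type I fibrils and whose gene neighbours Col3a1, rose from 3.89 and 4.63 to 7.99, 6.98 and 7.87 (0.83, SE 0.131, adjusted p = 0.00637). Its partner Col5a1 stood at 1.34 and 1.9 against 2.37, 3.62 and 2.8 (0.84, SE 0.202, adjusted p = 0.0698). In all 3 the groups did not overlap.

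Both type I chains rose. Col1a1 went from 15.6 and 36.5 to 54.4, 47.9 and 55.3 CP10K (log2 difference 1.13, SE 0.238, adjusted p = 0.0361) and Col1a2 from 15.3 and 27.0 to 40.1, 33.7 and 38.6 (0.88, SE 0.178, adjusted p = 0.0295). The Apoe-/- libraries lay far apart for both genes, with replicate 2 nearer to the labelled libraries. Neither passed when any 1 labelled library was left out (adjusted p from 0.0687 to 0.105), which left 3 calls each time. Without Apoe-/- replicate 2 there were 11 calls, beside 6.64% of all genes called.

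Col2a1 had the largest log2 difference of the class, with 0.407 and 0.345 against 1.62, 1.74 and 2.38 CP10K (2.19, SE 0.214, adjusted p = 0.000156). Few cells carried it. In each library 5 cells held 85.5 to 100% of the Col2a1 UMIs of the class, and 2 and 4 cells against 16, 13 and 18 had any. Leaving out modulated cells with at least 2 cartilage markers, a check added after the data were seen, kept 31 and 30 against 83, 73 and 67 cells. Then Col1a1 alone of 22 tested rose (1.14, adjusted p = 0.0328), beside 0.78% of 9230 genes called, while Col2a1 had a log2 difference of 0.87 (adjusted p = 0.678), Col1a2 0.83 (adjusted p = 0.0566), Col3a1 0.65 (adjusted p = 0.0613) and Col5a2 0.77 (adjusted p = 0.0886). The sizes for the chains of types I, III and V thus moved little, and that of Col2a1 moved by over 1 on the log2 scale. The 11 cartilage markers of the class did not move alike. Their sum was 24.6 and 42.2 against 26.3, 18.1 and 25.0 CP10K and was led by Cytl1 (21.7 and 38.1 against 19.1, 13.4 and 19.1). Cytl1 was not particular to cartilage-like cells, as ECs held 159 and 132 against 125, 118 and 110 CP10K of it. Acan (0.262 and 0.163 against 1.22, 1.01 and 1.39) and Comp (0.583 and 1.12 against 1.67, 1.86 and 1.81) were higher in each labelled library. Summed smooth muscle markers were 42.2 and 44.0 against 27.9, 37.2 and 28.0, and summed fibroblast markers 32.5 and 28.8 against 19.5, 14.1 and 24.0, both lower in each labelled library. The part of these markers in the collagen rises was not tested.

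Basement membrane, beaded filament and multiplexin chains of modulated cells did not pass. Col4a1 stood at 1.88 and 2.16 against 2.24, 2.25 and 2.4 CP10K (0.18, SE 0.153, adjusted p = 0.657), and its partner Col4a2 at 1.08 and 2.07 against 2.18, 1.98 and 2.4 (0.53, SE 0.229, adjusted p = 0.337). Of the type VI chains, which form beaded filaments around cells, Col6a3 stood at 3.99 and 4.47 against 5.29, 5.98 and 6.73 (0.50, SE 0.139, adjusted p = 0.125). Its partners Col6a1 (0.18, adjusted p = 0.643) and Col6a2 (0.15, adjusted p = 0.753) had smaller differences. Col11a2 was listed at 0 in both Apoe-/- libraries and had 0.124, 0.112 and 0.0845 CP10K in the labelled ones.

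**Figure D4:**
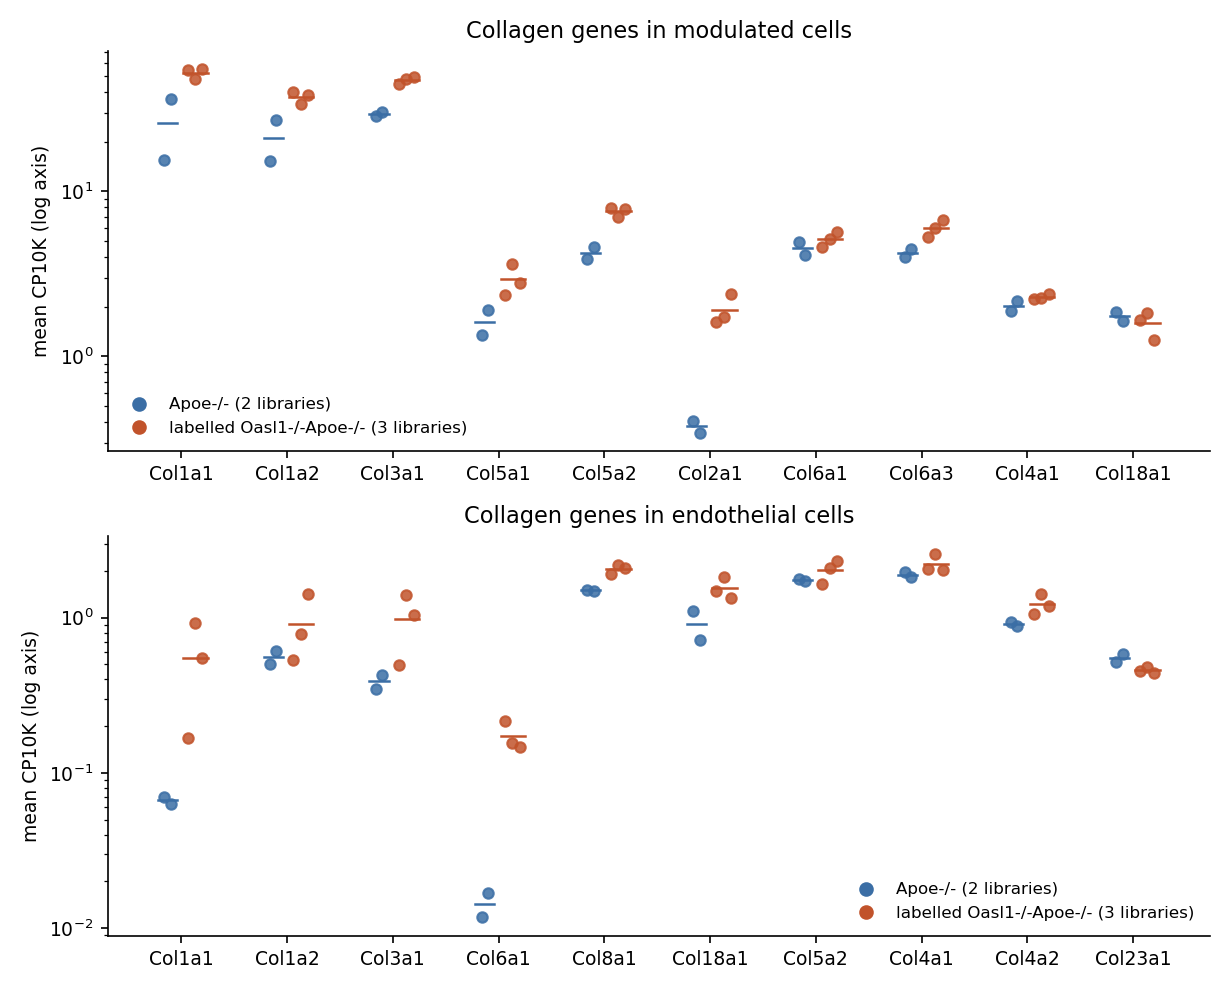
Mean CP10K (log axis) of 10 collagen genes in modulated cells (top) and 10 in ECs (bottom), 1 point per library, blue for Apoe-/- and orange for labelled Oasl1-/-Apoe-/-, with a bar at the mean of each group. In modulated cells Col1a1 of Apoe-/- replicate 2 (36.5) lies nearer to the labelled libraries (47.9 to 55.3) than replicate 1 does (15.6), and in ECs Col6a1 lies at 0.0117 and 0.0169 against 0.146 to 0.216.

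Cartilage-like cells were too few for a test, with 13 and 8 against 37, 40 and 46 cells, so their values are a description. Col2a1 stood at 69.0 and 79.7 CP10K in Apoe-/- and at 118, 211 and 161 in labelled libraries. In the Apoe-/- libraries 5 cells held 99.0 and 100% of its UMIs, and in the labelled ones 57.9, 38.2 and 42.6%. Col1a1 stood at 33.9 and 40.5 against 101, 106 and 94.9, and Col1a2 at 41.1 and 38.4 against 97.8, 97.9 and 77.6. These were higher in every labelled library, but how many of all genes took this order in the class was not counted. Cells of the class held a median of 6273 and 7092 UMIs against 8625, 7801 and 8961.5. The part of depth in these values was not tested.

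The minor chains of cartilage fibrils were also higher there. Col11a2 stood at 2.83 and 3.31 against 5.19, 7.94 and 7.87 CP10K, and its partner Col11a1 at 0.501 and listed at 0 against 2.69, 2.96 and 2.81. Col9a1 stood at 0.498 and listed at 0 against 2.89, 4.41 and 3.99. Col6a1 stood at 9.46 and 6.71 against 17.1, 18.0 and 16.3. Col10a1, the collagen of hypertrophic cartilage, had no such order, with 0.947 and listed at 0 against 0.13, 5.87 and 3.32. The class was not alike in both groups. Its summed cartilage markers were 381 and 314 CP10K in Apoe-/- and 105, 184 and 178 in labelled libraries, a sum led by Cytl1 (252 and 190 against 41.6, 77.7 and 78.6). Chad (44.6 and 34.7 against 2.97, 12.4 and 14.4) and Ibsp (45.9 and 57.6 against 11.9, 29.0 and 25.8) were also lower in each labelled library. So was Wif1 (13.5 and 6.99 against 0.778, 1.7 and 3.74). Other cartilage markers went the other way, with Acan at 7.13 and 5.7 against 10.5, 19.2 and 15.3, Comp at 10.4 and 14.2 against 25.9, 32.9 and 24.8, and Sox9, the factor that drives cartilage genes, at 6.0 and 4.97 against 8.0, 7.17 and 9.33. Summed smooth muscle markers were 21.1 and 34.6 against 10.2, 4.37 and 4.88. The part of these in the collagen values was not tested.

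In fibroblasts, none of 27 collagens tested passed in limma, 7 had an unadjusted p under 0.05, and voom called 1. Of all 9340 genes, 1.58% were called (148), and with any 1 library left out only 12 to 26. The median log2 difference was -0.0096 over the collagens and 0.049 over all genes. The former is the value of Col8a2, which had 7 UMIs in the class. Col2a1 (2 UMIs) and Col23a1 (5 UMIs) were also among those tested, so this median says little about the main chains. Col3a1, the highest, stood at 19.4 and 22.3 against 31.4, 34.0 and 25.9 CP10K (0.54, SE 0.144, adjusted p = 0.0724), with no overlap. Col1a2 stood at 13.7 and 19.2 against 21.8, 21.5 and 19.7 (0.37, SE 0.157, adjusted p = 0.37) and Col1a1 at 13.1 and 13.1 against 14.8, 19.4 and 17.0 (0.37, SE 0.157, adjusted p = 0.378). Col14a1, a collagen of adventitial fibroblasts that binds fibrils, overlapped between the groups, with 4.12 and 5.59 against 5.66, 4.06 and 3.82 (-0.11, SE 0.231, adjusted p = 0.912). Col6a1 overlapped too, with 3.18 and 2.82 against 2.87, 2.76 and 2.66 (-0.12, SE 0.24, adjusted p = 0.91). These values rest on 32 to 73 cells per library, and differences of this size did not pass at that depth.

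ECs carried little collagen, yet 5 of 17 collagens tested rose and none fell (9 at an unadjusted p under 0.05), beside 3.92% of all 9464 genes called. The median log2 difference was 0.39 over the collagens and -0.0086 over all genes. Part of these were collagens of the endothelial repertoire itself. Col8a1, which ECs deposit under the endothelium, stood at 1.51 and 1.49 CP10K in Apoe-/- and at 1.92, 2.18 and 2.1 in labelled libraries (log2 difference 0.45, SE 0.131, limma adjusted p = 0.0326). Col18a1 stood at 1.1 and 0.722 against 1.49, 1.83 and 1.34 (0.76, SE 0.159, adjusted p = 0.000866). The groups did not overlap for either. Without Apoe-/- replicate 2, Col18a1 had a difference of 0.47 (adjusted p = 0.264) and Col8a1 0.44 (adjusted p = 0.178), and 3 calls were left. Without Apoe-/- replicate 1 there were also 3, with adjusted p of 0.0771 for Col3a1 and 0.14 for Col8a1.

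The other 3 that rose were fibril and beaded filament chains at low levels. Col1a1 stood at 0.0698 and 0.0634 against 0.167, 0.921 and 0.553 CP10K (2.11, SE 0.322, adjusted p = 2.28e-06). Col3a1 stood at 0.349 and 0.427 against 0.496, 1.4 and 1.04 (1.13, SE 0.221, adjusted p = 0.000285). For both genes the labelled libraries lay far apart, which the SE drawn from other genes need not reflect. Col6a1 stood at 0.0117 and 0.0169 against 0.216, 0.156 and 0.146 (1.78, SE 0.332, adjusted p = 0.000123), which rests on 4 and 1 UMIs in Apoe-/-, so its size depends on the pseudocount, and the gene passed the filter only through the labelled libraries. Few ECs held these transcripts. Of the Col1a1 UMIs of the class, 5 cells held 95.8 and 91.7% against 58.3, 84.1 and 85.9%, whereas 5 cells held 24.3 to 34.7% of those of Col8a1. The Apoe-/- level of Col1a1 was near that of leukocytes, whose mean was 0.0497 CP10K in Apoe-/- and 0.17 in labelled libraries.

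Markers of modulated cells and of leukocytes were higher in the ECs of each labelled library. Summed modulated markers in ECs were 10.5 and 8.94 CP10K in Apoe-/- and 15.6, 15.9 and 15.0 in labelled libraries. Most of that sum was Fn1 (9.21 and 7.57 against 10.7, 9.68 and 9.78), and leukocytes carried 118 CP10K of these markers. Summed leukocyte markers in ECs were 0.213 and 0.146 against 0.583, 0.633 and 0.634. Summed fibroblast markers were 4.8 and 4.25 against 4.2, 4.47 and 4.6, and summed smooth muscle markers 11.8 and 10.0 against 7.24, 10.7 and 5.68. The part of these markers in the collagen rises was not tested. ECs held a median of 2796 and 2792 UMIs per cell in Apoe-/- against 3453, 3469 and 3580 in labelled libraries. The part of depth in the rises, or in the cut that follows, was not tested. Leaving out ECs with at least 3 modulated markers, a check added after the data were seen, removed 11 and 13 against 35, 29 and 40 cells. No collagen passed in limma in the cells that remained (3 at an unadjusted p under 0.05), although 250 of 9426 genes did (2.65%). Col1a1 then had a log2 difference of 1.23 (adjusted p = 0.0666) and Col18a1 0.59 (adjusted p = 0.0767), against 0.33 for Col3a1 (adjusted p = 0.784) and 0.19 for Col8a1 (adjusted p = 0.775). Col6a1 was below the filter.

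The type IV chains of ECs did not pass. Col4a1 stood at 1.97 and 1.82 against 2.05, 2.58 and 2.04 CP10K (0.22, SE 0.13, adjusted p = 0.52) and Col4a2 at 0.938 and 0.888 against 1.05, 1.43 and 1.19 (0.39, SE 0.158, adjusted p = 0.209). Col5a2, the second highest, overlapped between the groups with 1.78 and 1.73 against 1.65, 2.08 and 2.32 (0.18, SE 0.135, adjusted p = 0.65). Col23a1 was lower in each labelled library, at 0.521 and 0.583 against 0.453, 0.484 and 0.44 (-0.24, SE 0.201, adjusted p = 0.708), but the difference did not pass.

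**Figure D5:**
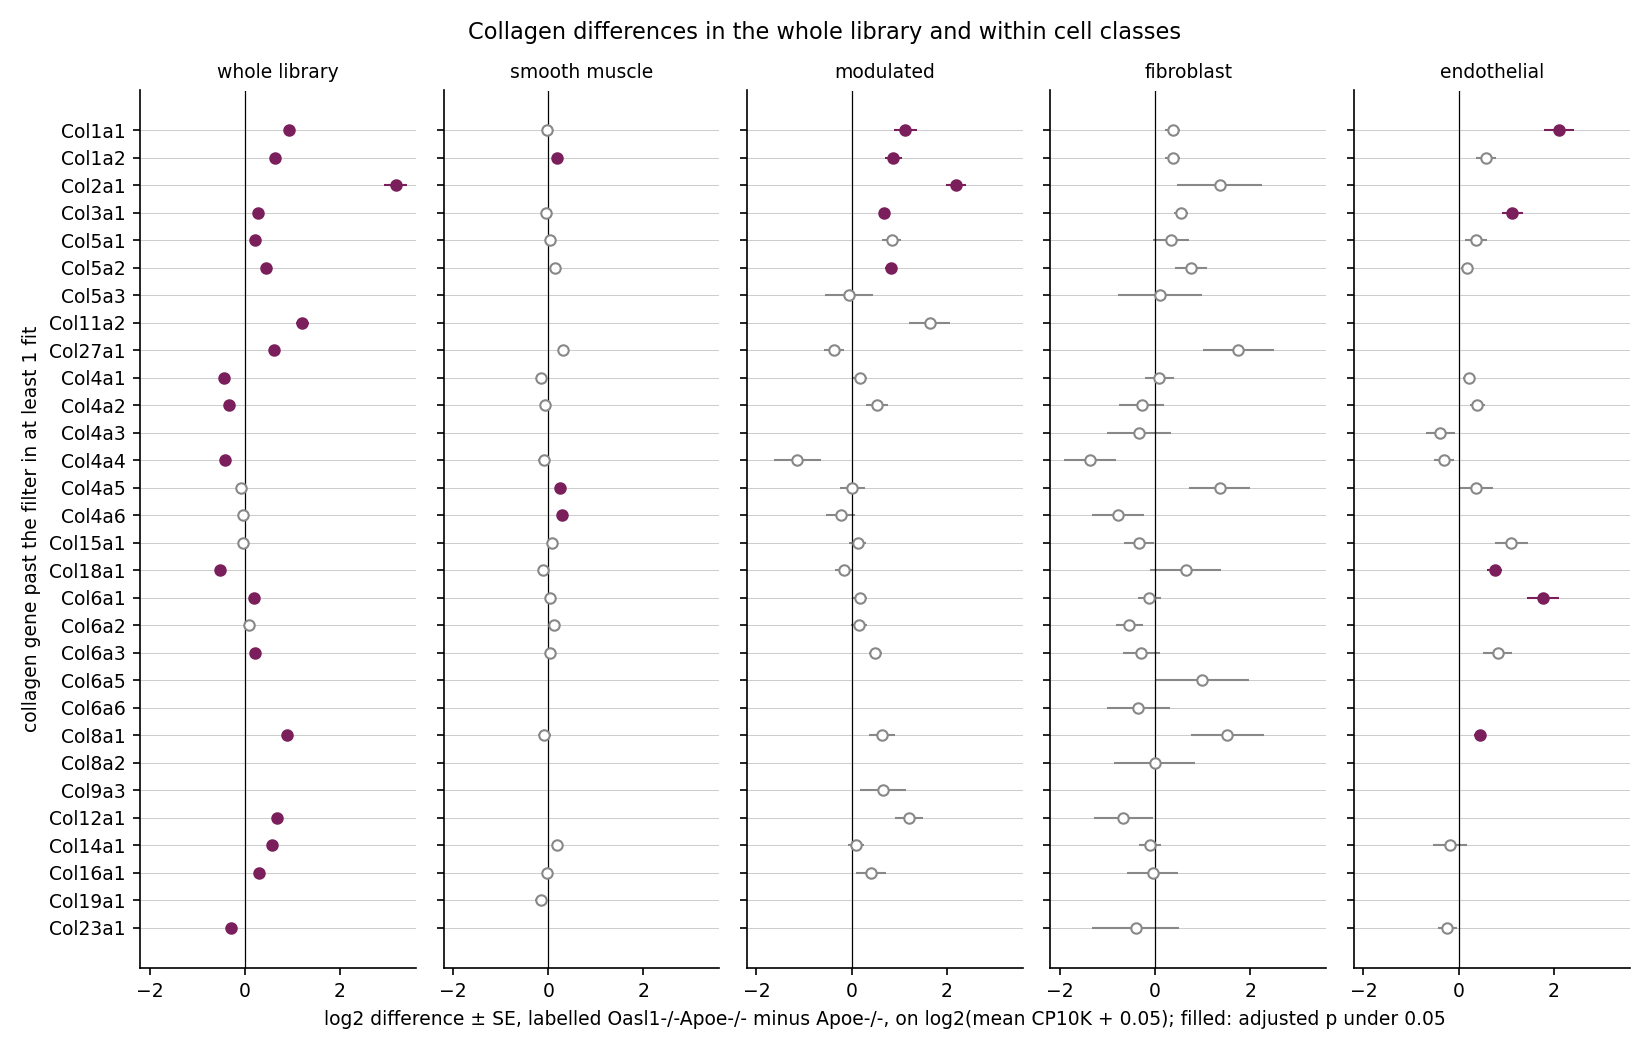
Log2 difference with its SE, labelled Oasl1-/-Apoe-/- minus Apoe-/-, on log2(mean CP10K + 0.05), for collagen genes in the whole library and in 4 cell classes. Filled points passed at an adjusted p under 0.05: 19 in the whole library, 3 in smooth muscle cells, 5 in modulated cells, none in fibroblasts and 5 in ECs.

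Whether a collagen differed between the groups by an unlike amount in 2 classes was tested on the difference within each library. In limma, none of 15 collagens passed for smooth muscle minus ECs (7 at an unadjusted p under 0.05), where 0.0854% of 8195 genes did. None of 19 passed for smooth muscle minus fibroblasts (2 unadjusted), where 0.0% of 8128 genes were called, nor of 19 for smooth muscle minus modulated cells (6 unadjusted), where 0.0% of 8287 were. The smallest adjusted p was that of Col6a1 between smooth muscle and ECs (-1.73, SE 0.239, adjusted p = 0.114). For Col3a1, which was lower in each labelled library in smooth muscle cells and higher in modulated cells, the difference was -0.72 (SE 0.165, adjusted p = 0.294). A call in 1 class and not in another is therefore not shown to differ between them.

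Genes that act on collagen were taken from 5 lists of 69 genes, of which 4 were gate markers and were left out of the counts. Of all genes tested, 6.99% were called in smooth muscle cells, 1.21% in modulated cells, 1.58% in fibroblasts and 3.92% in ECs, and the counts of these short lists stand beside those shares. Folding and modifying enzymes had 2 of 19 tested higher in smooth muscle cells, 1 of 20 in modulated cells, 1 of 18 in fibroblasts and 2 of 19 in ECs, with none lower. Serpinh1, the chaperone of procollagen, rose in modulated cells (0.58, adjusted p = 0.0113), fibroblasts (0.73, adjusted p = 0.00833) and ECs (0.58, adjusted p = 8.24e-06). P4ha1, a prolyl hydroxylase, rose in smooth muscle cells (0.35, adjusted p = 0.00273) and ECs (0.85, adjusted p = 0.00292). Among genes of procollagen processing and cross-linking, 1 of 8 rose in smooth muscle cells, 1 of 8 rose in modulated cells, 1 of 8 fell in fibroblasts, and 1 rose and 1 fell of 8 in ECs. Lox, which cross-links fibrils, was the riser in modulated cells (0.83, adjusted p = 0.0126), and Pcolce2, an enhancer of procollagen cleavage, fell in fibroblasts (-1.31, adjusted p = 0.00531) and in ECs (-0.73, adjusted p = 8.84e-05).

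Of the collagen-binding proteins, 3 of 11 rose in smooth muscle cells, 1 of 12 in modulated cells, 1 of 12 in fibroblasts and 3 of 8 in ECs. Thbs1 rose in smooth muscle cells (0.53, adjusted p = 0.002), modulated cells (1.22, adjusted p = 0.00549) and fibroblasts (2.65, adjusted p = 0.00346). Dcn, a proteoglycan that coats fibrils, rose in smooth muscle cells (0.56, adjusted p = 0.0259) and ECs (1.1, adjusted p = 5.96e-11). Among collagen receptors, 1 of 6 rose in smooth muscle cells and none passed of 7 in modulated cells, 6 in fibroblasts and 4 in ECs. Among genes of collagen degradation, none of 6 passed in smooth muscle cells and none of 8 in modulated cells, while 1 of 7 fell in fibroblasts (Timp3, -0.81, adjusted p = 0.0222) and 1 of 5 rose in ECs (Mmp3). Mmp3, a protease of matrix proteins, stood at 0.0159 and 0.0158 against 0.524, 0.723 and 0.601 CP10K in ECs (3.33, adjusted p = 7.97e-15), so it passed the filter only through the labelled libraries and the size of its difference depends on the pseudocount. The gate markers, which the choice of cells touches, included Lum (1.06 in smooth muscle cells, 2.02 in ECs), Timp1 (1.70 in ECs), Fn1 (-0.35 in smooth muscle cells, -1.10 in fibroblasts) and Comp (1.09 in modulated cells).

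Many of these calls were lost with 1 library left out. Of the 28 calls of list genes in a class, gate markers included, 10 passed in limma whichever library was left out. These were Serpinh1, Dcn, Lum, Mmp3 and Timp1 in ECs, P4ha1, Thbs1, Lum and Fn1 in smooth muscle cells, and Thbs1 in modulated cells. None of the 5 calls in fibroblasts passed in any such fit, with adjusted p from 0.0993 to 0.321 for Thbs1, 0.161 to 0.29 for Serpinh1, 0.0955 to 0.205 for Pcolce2, 0.129 to 0.418 for Timp3 and 0.129 to 0.527 for Fn1. In modulated cells, Lox did not pass without labelled replicate 2 or 3, nor Serpinh1 without labelled replicate 1 or 3 (highest adjusted p 0.0821 for each), and Comp passed in 1 of the 5 fits. Dcn in smooth muscle cells did not pass without labelled replicate 1 or 3 (highest adjusted p 0.121). In ECs P4ha1 reached 0.0682 without Apoe-/- replicate 1 and Pcolce2 0.0782 without Apoe-/- replicate 2.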

How the data were processed

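Aortic cells were profiled with the 10x 3′ version 2 kit in 5 libraries. Per the submitters' notes, reads were mapped to mm10 with Cell Ranger 3.1.0 and cells were filtered with Seurat 4.0.3, with doublets removed by the authors using DoubletFinder, so none were called here. Values were deposited on a natural log scale, as ln(1 + UMIs per 10000 UMIs of a cell). Undoing the log gave sums of 9999.997 to 10000.003, and whole UMIs for 100% of values (tolerance 0.01).

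Cells were classed by counts of detected markers, at cuts set after seeing the data. CP10K was averaged per library and class (at least 20 cells in each library), and log2(mean + 0.05) of genes with a mean of at least 0.05 was tested with limma 3.58.1 (lmFit, eBayes with trend, R 4.3.3), with Benjamini-Hochberg adjustment over all genes. Every collagen past the threshold within a class, the 5 highest per class, partner chains, the 5 largest whole-library differences each way, and up to 3 called list genes per class and direction were named. Col5a1 in modulated cells, Col9a1, Col9a2, Col9a3, Col10a1, Col11a1, Col11a2, Col19a1, Col23a1, Col6a5 and others outside this rule were chosen after their values were seen. The members and lists were chosen with earlier results of these data known. Scripts were tested on simulated data. Alternatives covered the pseudocount (0.5), the filter, summed UMIs, voom with TMM factors, a replicate block, left-out libraries, stricter gates and reweighted classes. Figures were drawn with matplotlib 3.10.9 in Python 3.11.15. UMI counts cover counting error only, and no cell annotation of the authors was used.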

Additional observations from a re-analysis of the deposited data

How the results depend on the processing

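Of 513 alternative values for 45 single collagen results, 443 kept their direction and their side of the threshold, 53 fell short of it, 8 newly passed and 9 turned direction. Of 32 called results, 1 turned: Col4a2 in the whole library, at 0.0028 with reweighted classes. The other turns were of uncalled results. Col1a1 in smooth muscle cells took 0.038 with summed UMIs, 0.014 with voom, -0.08 to 0.04 with a library left out (0.04 without Apoe-/- replicate 2) and 0.60 with cells of both marker sets, where Col3a1 took 0.28. In fibroblasts, Col14a1 took -0.33 to 0.11 with a library left out (0.11 without Apoe-/- replicate 2), and Col6a1 took 0.046 with voom and 0.0079 with the stricter gate. The cause was not tested.

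Counts of called collagens moved as follows. In ECs, the 5 became 0 without cells of at least 3 modulated markers, 3 with no filter, 2 with the stricter gate and 9 with summed UMIs, and 3 to 6 with a library left out. In modulated cells, the 5 became 1 without cells of at least 2 cartilage markers, 3 with no filter or with summed UMIs, and 3 to 11 with a library left out. In smooth muscle cells, the 3 became 13 with cells of both marker sets, and 1 to 5 with a library left out. With the replicate block, with voom and without Apoe-/- replicate 1, 3 were higher and 1, Col4a1, lower. In fibroblasts, the 0 became 1 with voom, summed UMIs or the stricter gate. For smooth muscle minus ECs, the 0 became 2 with a pseudocount of 0.5 and 2 with summed UMIs.

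Only replicate numbers 1 and 2 are shared by the groups, and deviations of same-numbered libraries correlated weakly (r from -0.0423 to 0.0429), so the numbers were not taken to pair the libraries. With the replicate block, the counts were 16 in the whole library, 4 in smooth muscle cells, 6 in modulated cells, 1 in fibroblasts, 5 in ECs and 0 for each difference between classes. No alternative was run for cartilage-like cells, which were under 20 in the Apoe-/- libraries. Those libraries, and the 32 to 73 fibroblasts and 50 to 136 modulated cells per library, limit what could be detected.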
